A study of Ginkgo biloba with 9 samples.

Results

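A set of 224 genes of Ginkgo biloba rose at each doubling of planting density in the leaf transcriptome, out of 41309 gene identifiers in the deposited table. The trees were of the cultivar Fozhi, 2 years old and grown in a nursery for leaf harvest. All stood in one kind of setting, with ample light and fertile, drained soil, and differed by density alone as far as the labels say. CK, the control, stood at 20 plants per square metre, MD (moderate density) at 40 and HD (high density) at 80, with 3 leaf RNA libraries each. The labels leave unsaid whether libraries of one density stem from different trees or from a single pool, so the spread between them may be technical. Plot and planting lot cannot be told apart from density, and in whole leaves a change in cell makeup cannot be told apart from a change of RNA per cell.

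The genes were chosen by their measured values. Levels are FPKM, read fragments divided by gene length in kilobases and by library size, and steps are differences of group means of log2(FPKM + 1), a scale that understates changes of low genes. A gene belonged to the set if it reached an FPKM of 1 in at least 3 libraries, had a mean below 1000 FPKM and was above 0 at each density. Its mean also had to rise by at least 0.4 from CK to MD and again from MD to HD, with every MD library above every CK library and every HD library above every MD library. The rises reported below are therefore descriptions of how the genes were chosen and carry no test.

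As background, crowded plants shade one another and compete for water and nutrients. Leaves sense shade through phytochromes, photoreceptors that respond to the balance of red and far-red light, and through the lower light supply itself. Both signals are known in other plants to change the expression of growth, hormone and photosynthesis genes. Ginkgo leaves are harvested for flavonoids and terpene trilactones, and the study asked how density affects leaf yield and these compounds. Identifiers come without names in the table, and no annotation was used here. What the 224 genes encode is therefore not stated, the leaf label was not checked against marker genes, and only 2 identifiers are printed.

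The rule at both doublings was met by 1.13% of the genes tested. Of 19854 genes that passed the filter on low values, 2210 that also met the demands on the mean and on presence rose by at least 0.4 at the first doubling. At the second doubling 2386 did so. Both steps reached 0.4 in 253 genes, and 29 of these had overlapping libraries, which left the 224 (1.13% of genes tested). They were 10.1% of the genes with the first step and 9.39% of those with the second. Both counts of single steps came from 19692 genes that met the demands on the mean and on presence. The number that unrelated steps would share was not worked out, so 224 is not read as few or many. More of the genes with the first step then stayed within 0.4 of their MD level (1148) or fell by at least 0.4 (809). The mirror rule, with both steps at or below -0.4 and no overlap, found 192 genes. Rises and falls share the MD libraries, so the steps of a gene are not independent of each other.

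**Figure D1:**
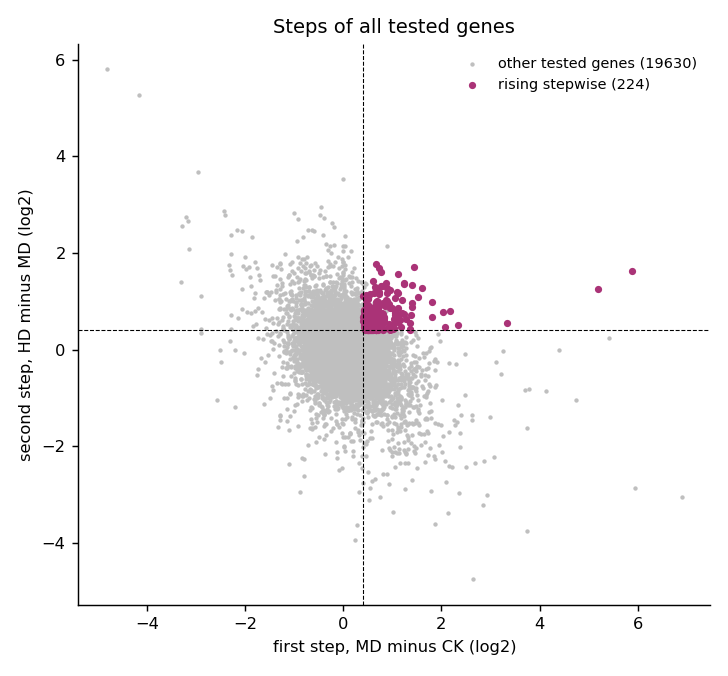
Step from CK to MD (horizontal, log2) against step from MD to HD (vertical, log2) for the tested genes. The 224 genes rising stepwise (purple) lie beyond 0.4 on both axes (dashed lines), and the other 19630 are grey.

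Summed over the 224 genes, the level was 4340, 4335 and 4327 FPKM in the CK libraries 1 to 3. In MD it was 7310, 7235 and 7303 FPKM, and in HD 11837, 11875 and 11985 FPKM. The 3 libraries of a density lay far closer to each other than to those of the next density. The rule demanded separate densities in every gene, so the gap between the sums is no finding. The means of the densities were 4334 ± 6.45, 7283 ± 41.7 and 11899 ± 76.8 FPKM in rising order (SD, n = 3), ratios of 1.68 at the first doubling and 1.63 at the second. As a share of the summed FPKM of all genes, the set took 0.397% ± 0.00262 at 20 plants per square metre, 0.672% ± 0.00311 at 40 and 1.19% ± 0.00488 at 80 (SD, n = 3). That sum over all genes was lower in HD (996238 to 1001236 FPKM) than in CK (1082734 to 1097979 FPKM), which adds to the HD share. As a share of reads, which weights genes by length, the set took 0.419% to 0.422% in CK, 0.712% to 0.713% in MD and 1.21% to 1.22% in HD. The rise of the sum was spread over many genes, since the 10 most abundant ones gave 32.6% of it.

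The typical member rose by a similar factor at each doubling. It was 0.65 at the first doubling (quartiles 0.51 and 0.87) and 0.67 at the second (quartiles 0.50 and 0.89). Over all tested genes the medians were -0.00068 and 0.0051, and in the mirror set of falling genes -0.61 and -0.69. The genes were chosen by these steps, so neither their likeness nor their distance from all genes is a finding. From CK to HD the median difference was 1.35, with a range of 0.85 to 7.52. In FPKM, the HD mean was a median of 3.02 times the CK mean, and at least 4 times in 76 genes and at least 10 times in 20. The ratio is poorly set where CK held few reads. Among the 211 genes with at least 10 reads over the CK libraries it ran from 1.84 to 30.7 with a median of 2.95.

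**Figure D2:**
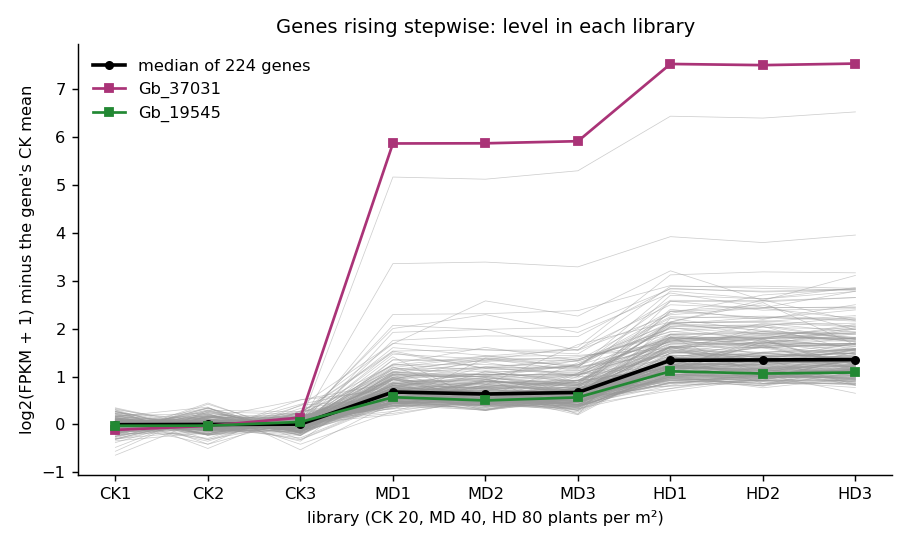
Level of each of the 224 genes in each of the 9 libraries, as log2(FPKM + 1) minus the mean of the gene over the CK libraries (grey lines, with the median in black and the 2 named genes in colour). The median lies near 0 in CK, between 0.64 and 0.68 in MD and between 1.34 and 1.35 in HD.

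The shape of the rise varied among the genes. The first step was the larger in 111 genes and the second in 113. In 114 genes the steps were within 0.2 of each other, in 57 the second was larger by more than 0.2, and in 53 the first. Genes with the larger second step had median steps of 0.53 and 0.95, and those with the larger first step 1.05 and 0.55. These medians follow from the sorting, and the bound of 0.2 was not set against the spread between libraries. The sorting is also not one by ratio, since the log2(FPKM + 1) scale shrinks the first step of low genes. A gene sorted under the larger second step had ratios of mean FPKM of 7.34 from CK to MD and 4.19 from MD to HD. Set against the number of plants instead, the second doubling adds 2 times as many plants per square metre as the first. The FPKM gained from MD to HD was a median of 1.59 times that gained from CK to MD. It was over 2 times in 77 genes, between 1 and 2 times in 115, and no more than 1 time in 32. In 51.3% of the genes the gain in FPKM was thus larger at the second doubling but smaller than in proportion to the plants added.

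A fit over all tested genes (limma, Benjamini-Hochberg adjusted p under 0.05) gives the background of these steps. The rule used the same contrasts, so the counts of members are given for completeness and nothing is read from them. From CK to MD, 18% of all tested genes were called higher, and 221 of the 224. From MD to HD it was 20.4% of all genes and 217 of the 224, and from CK to HD 25.4% and all 224. Both steps were called in 214 genes. The 10 others were mostly low, with means of 1.02 to 14.4 FPKM and a median of 2.22. Full separation of neighbouring densities, which the rule demanded, held at both steps for 5.87% of tested genes. A departure of MD from the mean of CK and HD, which is 0 when both steps are equal, was called in 40 of the 224 (17.9%), against 33.3% of all tested genes. MD lay above that mean in 24 of them and below it in 16, where the shares over all tested genes were 17.5% and 15.7%. The demand that both steps be at least 0.4 leaves out genes with steps of opposite sign. For a given rise from CK to HD it limits how far MD can lie below or above that mean. The share in the set can therefore not be read against that of all genes.

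At its edges the set had no gap. The smallest first step inside was 0.40 (0.401, with a second step of 0.60), and the gene just outside had 0.3994 with a second step of 0.45. For the second step the values were 0.4017 inside and 0.3983 outside. A first step between 0.3 and 0.4 kept out 92 genes that met the other demands on steps and overlap, and a second step in that range 61. Inside, 48 genes had a first step under 0.5 and 57 a second step under 0.5. Libraries of neighbouring densities were separated by a median of 0.41 (log2) between CK and MD and 0.44 between MD and HD. The narrowest separations were 0.0055 and 0.0029. For the nearest genes outside, whose libraries overlapped, the same measure was -0.0050 and -0.028.

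The gene with the largest rise from CK to HD on the log2(FPKM + 1) scale, Gb_37031, was close to silent at the control density. It held 0, 1 and 3 reads in the CK libraries 1 to 3, or 0, 0.0598 and 0.195 FPKM. In MD it stood at 62.0, 62.1 and 64.1 FPKM, and in HD at 197.8, 194.5 and 198.9 FPKM. The groups did not overlap, which the rule demanded. Within MD and within HD the libraries differed by a few percent at most. The step was 5.88 from CK to MD and 1.64 from MD to HD. In FPKM, HD was 3.14 times MD, and the gain from MD to HD was 2.15 times that from CK to MD. The first step rests on 4 CK reads against 2471 in MD and 8109 in HD, so its size depends on the pseudocount.

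The most abundant of the 224 genes, Gb_19545, was already well expressed at the control density and rose evenly. The CK libraries 1 to 3 had 289.5, 290 and 305.9 FPKM, the MD libraries 438, 418 and 436.9 FPKM, and the HD libraries 637.7, 617.2 and 626.8 FPKM. The rule demanded groups that do not overlap. In this gene the libraries of each density lay far closer together than to the next density. The means were 295 ± 9.35, 431 ± 11.3 and 627 ± 10.2 FPKM (SD, n = 3). Its steps were 0.54 and 0.54, and HD was 2.13 times CK. By rise on the log2(FPKM + 1) scale it ranked 170 among the 224, against rank 1 for Gb_37031, which in turn ranked 21 by mean level.

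**Figure D3:**
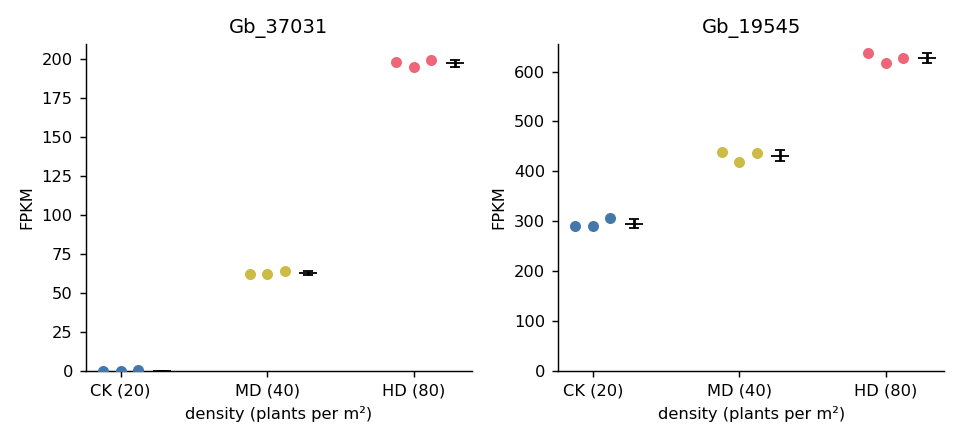
FPKM of Gb_37031 and Gb_19545 in each library (points) with the mean and SD of each density (bars, n = 3). The first gene goes from nearly 0 to 62.7 and 197 FPKM and the second from 295 to 431 and 627 FPKM.

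Starting levels ran from 0.0040 to 295 FPKM in CK. In CK, 39 genes had a mean under 1 FPKM, 97 lay between 1 and 10, 80 between 10 and 100, and 8 at 100 or more. The median ratio of HD to CK over these classes was 9.86, 3.03, 2.45 and 2.18. This order is no finding. The rule asks for steps of at least 0.4 on log2(FPKM + 1) and 1 FPKM in at least 3 libraries, so a gene with a low CK level enters only with a high ratio. On the log2(FPKM + 1) scale the median difference ran less steeply, at 1.59, 1.40, 1.24 and 1.12. Among all tested genes, the 224 stood at a median percentile of 37.9 by CK level, 50.8 by MD level and 65.3 by HD level. At 100 FPKM or more there were 8 genes in CK, 13 in MD and 30 in HD. Genes below 1 FPKM numbered 39 in CK and 13 in MD. Every member had to rise at both steps, so these shifts of percentile and count follow from the rule and are no finding. The rule itself puts every HD library of a member at 1 FPKM or more, and 4 genes passed the filter on low values through the HD libraries alone.

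A subset of 13 genes rose by at least 1 on the log2 scale at both doublings. These had CK means from 0.085 to 53.2 FPKM with a median of 2.00. Their median was 11.7 FPKM in MD and 38.4 FPKM in HD. No gene rose by 2 or more at both. A first step of at least 2 was seen in 7 genes and a second step of that size in 0, the highest being 1.78.

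Averaged over the 9 libraries, which pools lower CK and higher HD levels, the set lay near all tested genes in abundance. The mean over the 9 libraries was 12.3 FPKM at the median (quartiles 4.59 and 36.3), against 10.7 (3.84 and 31.0) over all tested genes. Reads over the 9 libraries ran from 94 at the lowest to a median of 1798 (2203 over all tested genes), and 15 genes had under 200. Within CK the median coefficient of variation was 10.7% in the set and 7.59% in all tested genes, within MD 8.41% and 7.74%, and within HD 6.41% and 7.75%. The members were chosen by demands on these same libraries, so nothing is read from these values.

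Independent of the choice are libraries that took no part in it. The rule was applied again to the 6 libraries of 2 replicate numbers, and the resulting genes were read in the 3 libraries of the number left out, 1 per density. With the libraries numbered 1 left out, 257 genes met the rule. In the libraries left out, both steps were above 0 in 232 of them (90.3%) and at least 0.4 in 145 (56.4%). Over all tested genes these shares were 21.5% and 1.52%. Without the libraries numbered 2, 238 genes met the rule, 183 of them members. In the libraries left out 219 of the 238 (92.0%) rose at both steps and 146 (61.3%) by at least 0.4 each time. All tested genes gave 21.5% and 1.65%. Without number 3 it was 245 of 260 (94.2%) and 141 (54.2%), against 21.6% and 1.54%. Of these 260, 194 were members. The median steps hardly shrank. For number 1 they were 0.62 and 0.64 in the libraries that chose the genes and 0.60 and 0.67 in those left out. For number 2 the values were 0.65 and 0.64 against 0.62 and 0.66, and for number 3 they were 0.63 and 0.63 against 0.62 and 0.65. All 3 choices held 144 genes in common. With 1 library per density left out there is no test, and if libraries of a density share plants, these values speak of the measurement and not of other plants.

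**Figure D4:**
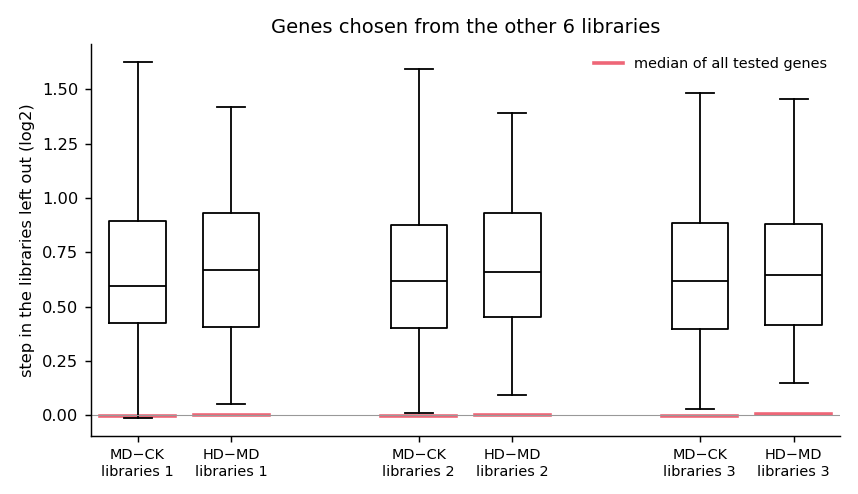
Steps in the 3 libraries left out, for genes chosen from the other 6 libraries (257, 238 and 260 genes for numbers 1 to 3; boxes show quartiles and median, whiskers the 5th and 95th percentile). Medians lie between 0.60 and 0.67, and those of all tested genes (red) near 0.

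Gene models of the set were shorter than most. The steps between low FPKM values give gene lengths, rounded to whole nucleotides, which were had for all 224 genes. The median was 837 nt, against 1152 nt over all tested genes and 1281 nt in the 192 genes that fell stepwise. Models under 600 nt made up 30.4% of the set, 22.7% of tested genes and 14.6% of the falling genes, and models of 1500 nt or more 25%, 36.3% and 36.5%. The difference stood among genes with a mean below 10 FPKM (median 915 nt in the set, 1281 nt in all tested) and from 10 to 100 FPKM (816 and 1125 nt). It did not among the 15 genes of 100 FPKM or more (810 and 759 nt). A length was a multiple of 3 in 87.5% of the set and in 87.5% of tested genes. In other genes, the share with a large rise also went with length. Among tested genes outside the set, HD exceeded CK by at least 0.8 (log2) in 5.80% of models under 600 nt, in 4.36% of those from 600 to under 1500 nt, and in 2.39% of longer ones. The median HD minus CK of these classes was 0.0039, -0.031 and 0.028, which is not in the order of length. Falls of that size are not given by length here, so these shares do not show a direction. With the median trend of each library with length removed, a setting added after the data were seen, 244 genes met the rule, 212 of them in the set. The part of length in these rises was not tested further.

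**Figure D5:**
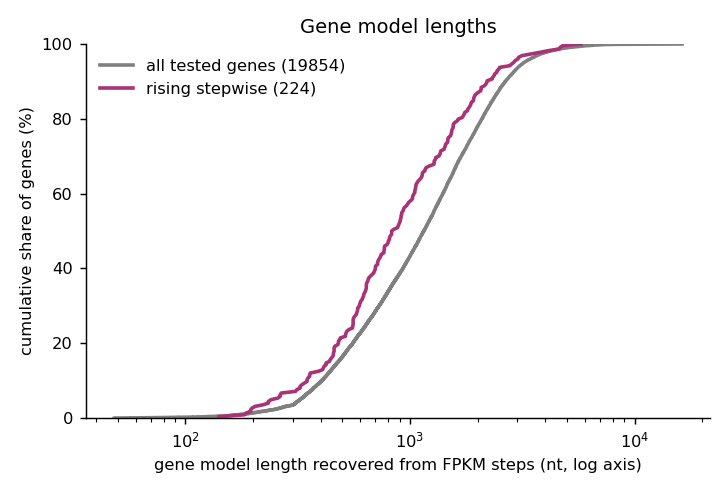
Cumulative share of genes (%) by gene model length in nt (log axis) for the 224 genes rising stepwise and for all 19854 tested genes. The curve of the set lies to the left over most of the range, with medians of 837 and 1152 nt.

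Genes of the set often carried consecutive identifier numbers. Of the 224, 26 (11.6%) had another member at the next number up or down, while 228 of the 19630 other tested genes (1.16%) stood beside a member. In the mirror set of falling genes, 9 of 192 (4.69%) stood beside another falling gene. The 26 formed 11 runs, of which 9 held 2 genes, 1 held 3 and 1 held 5. Whether consecutive numbers mark neighbours on a chromosome is not given in the sources used here. Gb_37031 was in such a run. Its partner, one number away, went from 0.0928 FPKM in CK to 39.0 in MD and 94.5 in HD, with steps of 5.19 and 1.26, while the gene at the next number beyond was at 74.6, 64.9 and 75.4 FPKM.

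The run of 5 held genes of 459 to 942 nt. Their CK means were 20.4, 23.9, 21.3, 3.43 and 34.6 FPKM in order of number. In HD the same genes stood at 152, 149, 76.4, 38.4 and 80.8 FPKM, so each rose, by HD minus CK differences that were all above 1. The run of 3 held short, low genes of 558, 558 and 594 nt that rose from 0.149, 0.151 and 0.116 FPKM in CK to 3.50, 2.62 and 2.39 in HD. Each of the 3 had between 99 and 136 reads over the 9 libraries. No sequences were used here, so it is not known whether genes of a run are near-identical copies. The treatment of reads that match several copies is also not stated, and the values of a run are therefore uncertain as separate measurements.

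The genes one number away from a member but outside the set are given as a description, with no test. The 228 tested genes of this kind had a median HD minus CK difference of 0.12, against -0.0022 over all tested genes outside the set. A difference of at least 0.8 was seen in 23 of them (10.1%), against 3.97% of the genes outside the set. Both steps were above 0 in 58 (25.4%), against 21.9%. Where copies share reads, these genes are not independent of the members.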

How the data were processed

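Per the file headers, the authors' deposited table holds 9 columns of FPKM, each of which matched 1 sample title. CASAVA 1.8, TopHat2 and RSEM are listed, with no role for any, per the submitters' processing notes. Not given in the sources used here are the genome build, the annotation and the treatment of multiply mapped reads.

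Steps in the FPKM values gave whole reads (within 0.001 reads plus rounding) for 100% of the 21602 genes above 0 in every library. Gene lengths came from the same steps and were rounded to whole nucleotides, so the 100% is no check of lengths. Of the 224 members, 6 had a library at 0 and lie outside the check of reads. Recovered reads summed to 14703244 to 22445296 per library. Lacking molecular identifiers, reads may repeat a molecule.

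log2(FPKM + 1) of the 19854 genes that reached an FPKM of 1 in 3 or more libraries was fitted with limma 3.58.1 (R 4.3.3, trended prior variance), 1 model for all 9 libraries without a replicate block. Calls used Benjamini-Hochberg adjusted p under 0.05 per contrast. The rule, the fit and the recovery of reads were run on simulated data built with the recovered lengths and library sizes. Such data follow the model that the recovery assumes, so they cannot show that it suits the authors' values. Named were the member with the largest HD minus CK difference and the one with the highest mean level. The members, contrasts and alternatives were chosen with earlier results of these data known. Pathway lists drawn up by gene name were not matched, since no names were used here.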

Additional observations from a re-analysis of the deposited data

How the results depend on the processing

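The number of genes meeting the rule was 413 with steps of at least 0.3 and 88 with steps of at least 0.6. It was 224 to 252 with single libraries left out, and 200 to 217 of the 224 members were among these genes. The number stayed within 1.5 times of 224 under the other settings, with 303 at a pseudocount of 0.1, 292 under total-read scaling and 253 with no demand on overlap. The median first and second steps of the same 224 members were also computed again under each setting. They were 0.79 and 0.76 with a pseudocount of 0.1, and 0.68 and 0.72 under total-read scaling. Upper-quartile scaling gave 0.66 and 0.70. Quantile normalization gave 0.63 and 0.68, as did the length correction. Leaving out single libraries gave 0.63 to 0.66 and 0.65 to 0.69. Total-read scaling and the length correction were chosen after seeing the data. Over all settings, 207 to 224 members were called higher from CK to MD (12.8% to 20.7% of all tested genes), 201 to 221 from MD to HD (14.9% to 24.9%), and 30 to 45 as departing from a straight line (24% to 36.6%). Without any 1 HD library 220 members were tested. All 114 recomputed differences of the 2 named genes kept direction and call, though limma-voom gave 9.44 for the first step of Gb_37031. The replicate block gave 219, 215 and 224 called members for MD against CK, HD against MD and HD against CK, and 44 for the departure. Across tested genes, deviations of same-numbered libraries from their group means had correlations of -0.0069 to 0.073, those of other pairs -0.052 to 0.043, and no label pairs them. Depth limits the members with few reads, 13 of which had under 10 in CK.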
